A study of Mus musculus with 12 samples.

Results

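Regions of FLAG-Zscan4 in the first 7 Mb of assembled sequence of the mouse autosomes, next to the centromeres, were examined. They were chosen by position alone, as listed regions on chromosomes 1 to 19 with a midpoint from 3 Mb to below 10 Mb of mm10. This gave 323 regions, of 4759 on the autosomes and 4973 in the whole list. The list comes from J1 mouse embryonic stem (ES) cells, of the strain labelled 12910la and the genotype Zscan4 overexpression, in which FLAG-tagged Zscan4c was expressed from a pCMV plasmid (1000 ng, selection from 24 h with 500 ug/ml G418 for 10 days). Cells were picked as single clones, and chromatin was pulled down with an anti-FLAG antibody. The labels also list an input of the same genotype (not analysed here), 5 wild-type samples and 5 further overexpressing samples for H3K27ac, H3K14ac, H3K4me1 and their inputs (not analysed here). Expression was not measured, so the cell type could not be checked against its markers. Each of the 12 samples is a group of 1, so no replicate spread and no test between samples exists. Intervals are 95% exact intervals that cover counting error only, and they treat regions as independent, which neighbouring regions are not.

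Mouse autosomes are telocentric: the centromere lies at one end, embedded in long arrays of satellite repeats. Such arrays are mostly missing from the assembly, which starts after a placeholder of 3 Mb, so the first assembled sequence is the closest to the centromere that reads can be mapped to. Zscan4c, which has zinc fingers and a SCAN domain, is made in the 2-cell embryo and in brief bursts in ES cells, and it is known for roles in telomere lengthening and in transient loosening of heterochromatin. Pericentromeric sequence is rich in heterochromatin and in duplicated genes, and reads from near-identical copies cannot be assigned to one of them with certainty.

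The sequences shown first are the promoters that the regions touched. The score named with a region is the authors' own number for it. Its scale was not stated, and here it only ranks regions of this list. Genome sequence was not used here, so the regions themselves are given by position. RefSeq promoters of GRCm38.p6 (250 bases before to 50 after each start) were at hand for 18 of the 19 autosomes. These held 314 of the 323 regions, and 5 of the 314 overlapped a promoter. Of the 1577 promoters at the starts, 5 lay under a region, against 43 of 31396 on these autosomes as a whole. Capitals mark the bases that lie inside the listed region. All are printed 5′ to 3′ on the gene's strand. The promoter of Slc7a15, a gene of the amino acid transporter family SLC7 (chr12:8539517-8539816, minus strand), shared 28 bases with a region of score 75. This region lies inside the gene, 11.5 kb from its nearest annotated end, so the promoter shown belongs to a start within the gene.
Slc7a15: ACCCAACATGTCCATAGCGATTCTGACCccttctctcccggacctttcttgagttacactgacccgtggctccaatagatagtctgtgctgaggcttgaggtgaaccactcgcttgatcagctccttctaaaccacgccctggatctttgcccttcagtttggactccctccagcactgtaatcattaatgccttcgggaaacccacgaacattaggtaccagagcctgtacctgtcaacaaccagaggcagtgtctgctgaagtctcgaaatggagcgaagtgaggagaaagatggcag
The promoters of the predicted genes Gm3115 (chr14:4083914-4084213, plus strand) and Gm3278 (chr14:4892171-4892470, plus strand) shared 223 bases with a region of score 21 and 83 bases with a region of score 45.
Gm3115: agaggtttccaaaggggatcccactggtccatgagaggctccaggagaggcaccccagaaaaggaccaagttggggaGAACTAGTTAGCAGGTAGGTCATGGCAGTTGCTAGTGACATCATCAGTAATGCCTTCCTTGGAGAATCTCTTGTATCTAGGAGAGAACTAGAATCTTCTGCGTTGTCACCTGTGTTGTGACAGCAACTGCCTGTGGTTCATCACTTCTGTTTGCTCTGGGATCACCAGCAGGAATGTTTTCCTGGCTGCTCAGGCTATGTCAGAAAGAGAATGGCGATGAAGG
Gm3278: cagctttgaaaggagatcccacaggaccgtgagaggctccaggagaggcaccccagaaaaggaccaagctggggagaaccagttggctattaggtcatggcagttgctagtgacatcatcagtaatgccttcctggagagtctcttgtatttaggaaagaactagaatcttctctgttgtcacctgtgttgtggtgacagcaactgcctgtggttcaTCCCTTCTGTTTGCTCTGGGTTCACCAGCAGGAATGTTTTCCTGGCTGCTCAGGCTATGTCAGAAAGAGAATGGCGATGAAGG
Gm26680, a long non-coding RNA gene (chr14:6683810-6684109, plus strand), shared 59 bases with a region of score 40. LOC115488814, another (chr17:6599346-6599645, minus strand), shared 126 bases with a region of score 20.
Gm26680: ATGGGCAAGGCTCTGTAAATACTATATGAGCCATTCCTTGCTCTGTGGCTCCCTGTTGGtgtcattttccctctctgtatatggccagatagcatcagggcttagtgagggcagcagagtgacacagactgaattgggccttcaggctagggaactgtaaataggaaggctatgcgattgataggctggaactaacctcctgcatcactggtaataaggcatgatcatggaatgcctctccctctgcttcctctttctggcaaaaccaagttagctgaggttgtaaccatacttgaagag
LOC115488814: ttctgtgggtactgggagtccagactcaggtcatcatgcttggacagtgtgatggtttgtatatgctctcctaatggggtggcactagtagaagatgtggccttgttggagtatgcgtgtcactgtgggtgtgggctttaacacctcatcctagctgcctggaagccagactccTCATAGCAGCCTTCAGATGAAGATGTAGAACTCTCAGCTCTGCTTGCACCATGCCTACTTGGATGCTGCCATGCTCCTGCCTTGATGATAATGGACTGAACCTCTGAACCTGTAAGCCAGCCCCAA
The promoters of Gm3115 and Gm3278 were identical at 277 of 303 aligned positions (91.4%), against 48.2 to 53.3% for the other 9 pairs of these 5. None of the 5 promoters held TGCACAC, a motif described for Zscan4, CACACACA, a run of the CA repeat, or TTAGGG, the telomere repeat unit, on either strand. Of 31396 autosomal promoters in the table, 4.40% held TGCACAC, 4.14% CACACACA and 10.6% TTAGGG. The letters were not in these windows, and the rest of the regions was not read.

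MicroRNA genes stood nearest to the group of regions at the start of chromosome 9 and to the first region of chromosome 7, and their mature sequences are shown with the seed (bases 2 to 8) in capitals. On chromosome 9 this is Mir101c (mature sequence at chr9:3038680-3038698, minus strand), whose seed none of the others shown shares. The others belong to the Mir290 to Mir295 cluster on chromosome 7 (plus strand), which is highly transcribed in ES cells and promotes their rapid cell cycle. Its miR-291a-3p, miR-294-3p and miR-295-3p have the same seed, AAGUGCU, and miR-290a-3p has AAGUGCC.
mmu-miR-101c: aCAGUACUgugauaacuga
mmu-miR-290a-3p: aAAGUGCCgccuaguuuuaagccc
mmu-miR-291a-3p: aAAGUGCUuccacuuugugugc
mmu-miR-294-3p: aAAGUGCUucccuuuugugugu
mmu-miR-295-3p: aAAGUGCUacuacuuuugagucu

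FLAG-Zscan4 regions were somewhat denser at the autosome starts than in the rest of the autosomes, and a single chromosome carried most of the excess. The starts held 323 regions over 133 Mb, or 2.43 per Mb (2.17 to 2.71), against 4436 regions over 2270 Mb, or 1.95 per Mb (1.90 to 2.01), in the rest of the autosomes. The ratio was 1.24 (1.11 to 1.39). Without the stretch at 3 to 6 Mb of chromosome 14 and the one below 3.1 Mb of chromosome 9, the starts held 270 regions, or 2.08 per Mb (1.84 to 2.34), and the ratio was 1.06. The interval without the 2 stretches overlaps that of the rest. Both are dense stretches and were left out of the starts only, so the lower ratio follows in part by construction. Of 19 windows of 1 Mb with 10 or more regions, 3 were at the starts. With all 19 left out, the rates were 2.12 per Mb at the starts and 1.85 in the rest. The ratio was then 1.15, a value added after seeing the data. The parts most like the starts gave 262 regions, or 1.97 per Mb (1.74 to 2.22), in the following 7 Mb (10 to 17 Mb) and 271, or 2.04 per Mb (1.80 to 2.30), in the last 7 Mb of the autosomes.

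**Figure D1:**
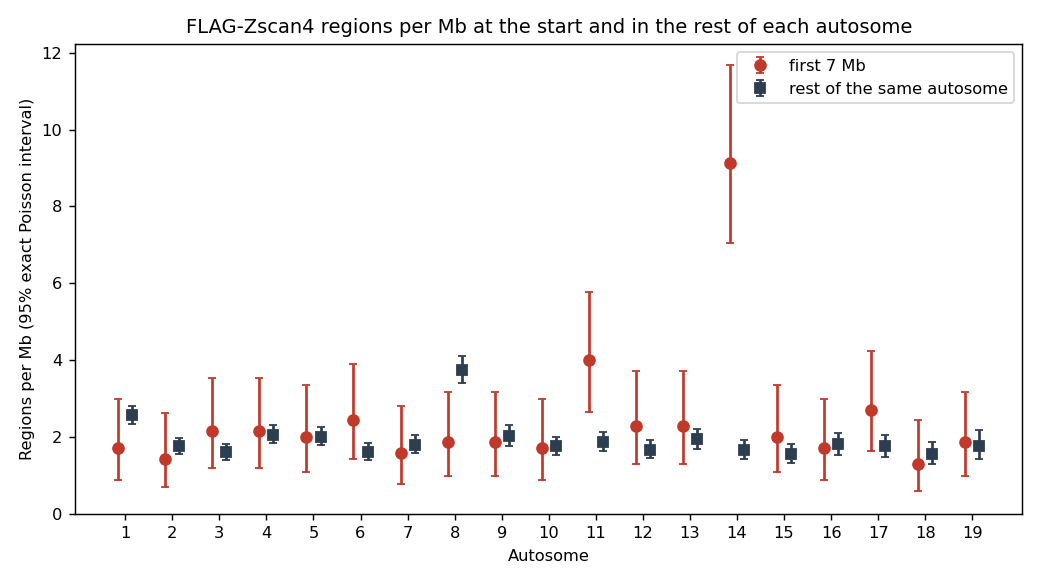
Regions per Mb (y axis) on each autosome (x axis), in the first 7 Mb (circles) and in the rest of the same autosome (squares), with 95% exact Poisson intervals. Chromosome 14 stands at 9.14 per Mb at its start, chromosome 11 at 4.0, and chromosome 8 is at 1.86 at its start against 3.76 in its rest.

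Chromosome 14 held 64 of the 323 regions (19.8%), and the other 18 autosomes held 9 to 28 each, with a median of 14 over all 19. The start of chromosome 14 had 9.14 regions per Mb (7.04 to 11.7) against 1.66 (1.43 to 1.91) in its rest. Chromosome 11 came next, with 28 regions, or 4.0 per Mb (2.66 to 5.78), against 1.87 (1.62 to 2.14) in its rest. Only on these 2 chromosomes did the interval of the start lie above that of the rest. On chromosome 8 it lay below: 13 regions, or 1.86 per Mb (0.989 to 3.18), against 3.76 (3.42 to 4.12) in the rest of that chromosome. Over the 19 autosomes, the start exceeded the rest on 10, and the median ratio was 1.04. With all regions of chromosome 14 left out, the pooled ratio was 1.04 as well. Copy number along these chromosomes was not measured, so a rate cannot be read as preference.

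**Figure D2:**
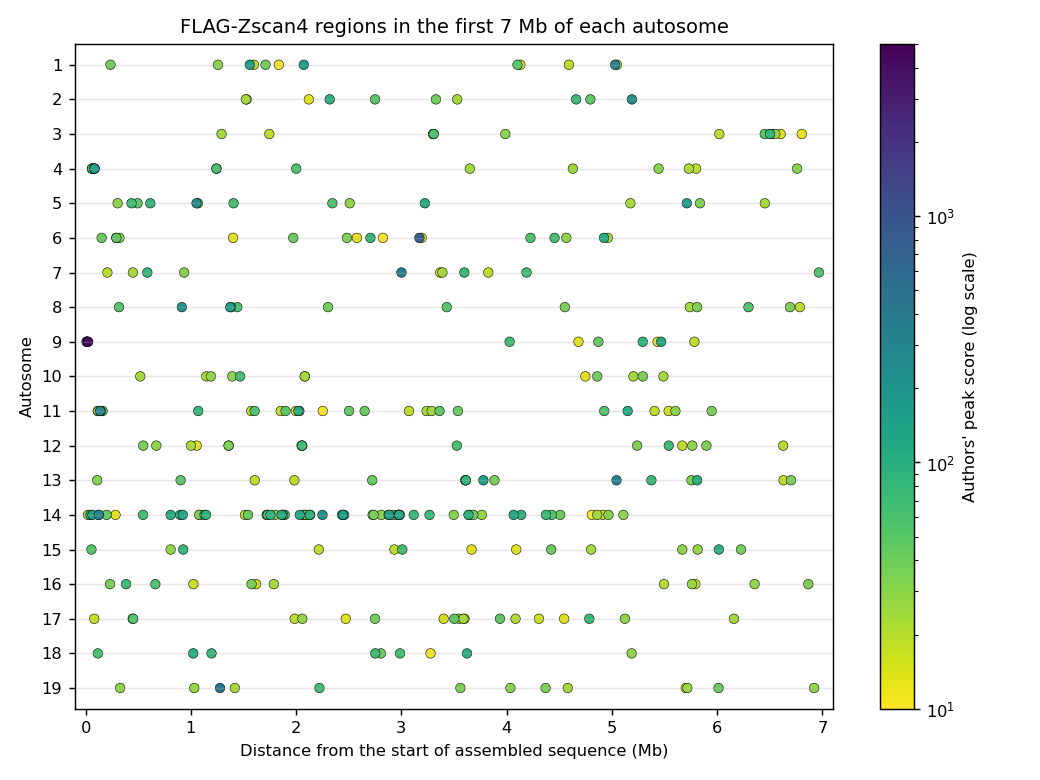
Each point is 1 region, placed by its distance from the start of assembled sequence (x axis, Mb) on its autosome (y axis) and coloured by the authors' peak score on a log scale. The 6 points of chromosome 9 at its very start overlap as the darkest spot, and chromosome 14 carries points throughout its first 5 Mb.

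The regions thinned out with distance from the start, and this too rested largely on 2 chromosomes. In successive windows of 1 Mb, pooled over the 19 autosomes, there were 60, 60, 53, 46, 38, 42 and 24 regions. This runs from 3.16 per Mb (2.41 to 4.06) in the first window to 1.26 per Mb (0.809 to 1.88) in the seventh. Without the 2 stretches, the first 3 windows held 43, 45 and 32 regions, or 2.40, 2.50 and 1.78 per Mb, and every interval of these 3 overlapped the 1.95 per Mb of the rest. The interval of the seventh window lies below the rate of the rest. The 7 windows that followed, beyond 10 Mb, held between 23 and 56 regions each, a similar spread.

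**Figure D3:**
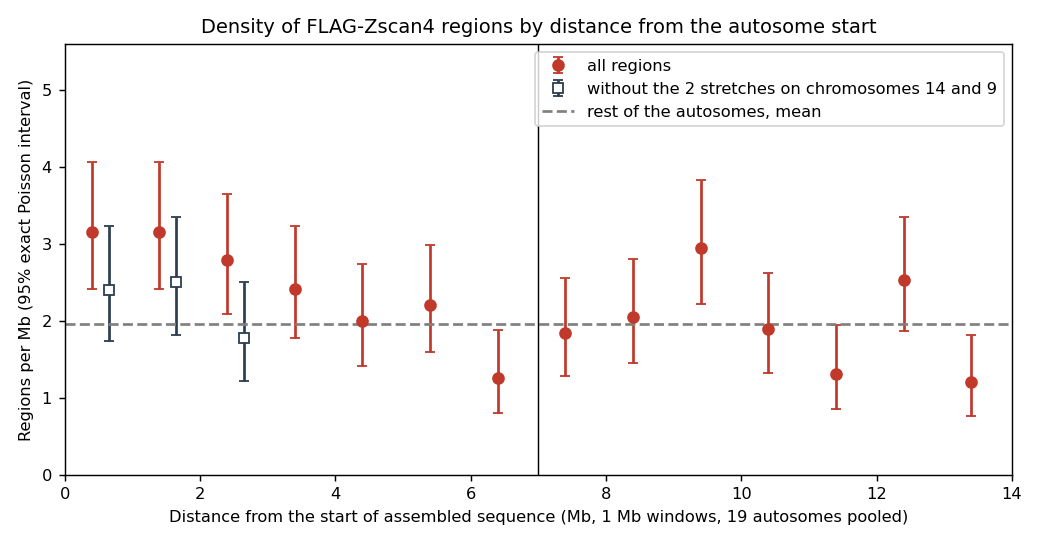
Regions per Mb (y axis) in 1 Mb windows by distance from the start of assembled sequence (x axis), pooled over 19 autosomes, with 95% exact Poisson intervals. Filled circles show all regions, open squares leave out the stretches on chromosomes 14 and 9, the dashed line is the mean of the rest (1.95 per Mb), and the vertical line marks the end of the examined part at 7 Mb.

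The first 100 kb were the densest, on few chromosomes. They held 17 regions over 1.9 Mb of pooled length, or 8.95 per Mb (5.21 to 14.3). Of these, 6 were on chromosome 4, 6 on chromosome 9, 3 on chromosome 14 and 1 each on chromosomes 15 and 17, so that 14 autosomes had none. From 100 to 250 kb there were 15 regions, or 5.26 per Mb (2.95 to 8.68), 6 of them on chromosome 11. From 250 to 500 kb there were 13, or 2.74 per Mb (1.46 to 4.68), and from 500 kb to 1 Mb 15, or 1.58 per Mb (0.884 to 2.60). These distances were set after the regions had been seen. Without the 2 stretches, 8 regions remained in the first 100 kb, 6 of them on chromosome 4.

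On each autosome the region closest to the start lay between 9.59 kb (chromosome 9) and 1522 kb (chromosome 2) from it, with a median of 206.6 kb. At the 10 closest, the nearest annotated genes were pseudogenes, long non-coding RNA and microRNA genes, and 1 protein-coding gene. Some belong to the family of vomeronasal receptors of type 1 (Vmn1r), whose protein-coding members encode pheromone receptors. On chromosome 9 the nearest gene was Mir101c at 29.1 kb. The first regions of chromosomes 14, 17 and 13 lay inside the non-coding gene Gm41084 (score 20), the transcribed pseudogene Pisd-ps2 (17) and the pseudogene Gm17177 (32). Those of chromosomes 15 and 11 lay at 1.14 kb from the pseudogene Gm9614 (53) and at 8.59 kb from Pisd-ps1 (18). Vmn1r pseudogenes were nearest on chromosome 4 (Vmn1r-ps2, at 44.2 kb, score 56) and chromosome 6 (Vmn1r261, 7.60 kb, 42). The protein-coding Vmn1r238 was nearest on chromosome 18 (6.32 kb, 59). The first region of chromosome 7 (3206367 to 3206837, score 19) lay 12.0 kb before Mir290a.

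The start of chromosome 9 held the highest scores. All 6 regions lay within 15.3 kb, at 3009288 to 3009893 (score 1484), 3010914 to 3011163 (1148), 3011428 to 3011859 (893), 3012220 to 3014943 (740), 3019855 to 3021140 (3513) and 3023548 to 3024581 (4515). The last 2 stand well above the others. They made up 6 of the 7 highest of the 323, and none was inside an annotated gene. Mir101c, whose sequence is shown above, was the nearest gene to all 6, at 14.6 to 29.1 kb. The input was not analysed, so whether it too held an excess of reads here was not tested. From 3.1 Mb on, chromosome 9 held 7 regions, with scores from 12 to 122, the first of them (score 66) in Dync2h1, a gene for a motor of the cilium.

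Chromosome 4 had another short group, with lower scores. Its 6 regions between 3059166 and 3085961 spanned 26.8 kb and had scores of 56, 57, 23, 111, 141 and 59. All 6 had another within 10 kb, none lay in a gene, and Vmn1r-ps2 was nearest to each, at 18.0 to 44.2 kb. These scores all lie below the 740 that was lowest in the group on chromosome 9.

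At the start of chromosome 11, 6 regions between 3115248 and 3161733 fell in and before Sfi1, whose yeast and human counterparts bind centrin at the spindle pole and the centriole. Sfi1 (3131850 to 3203347) held 4 of them, with scores of 273, 135, 30 and 51. The highest (3137219 to 3137556) also lay 0.312 kb from an end of the non-coding RNA gene Gm33862. The other 2 (scores 18 and 22) lay 8.59 and 4.89 kb from the transcribed pseudogene Pisd-ps1. Pisd-ps2, of the same symbol series, held the first region of chromosome 17. Whether the input held an excess of reads at this group in and before Sfi1 was not tested either. Beyond this group chromosome 11 had 5 or 6 regions in each of the windows 4 to 5, 5 to 6, 6 to 7 and 8 to 9 Mb, in or near genes such as Ap1b1, Mtmr3, Nf2, Kremen1, Camk2b and Tns3.

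Chromosome 14 differed from these short groups in that its regions ran on for 5 Mb. Windows of 1 Mb held 11, 15, 21, 7 and 9 regions between 3 and 8 Mb, then 1 up to 10 Mb. The 47 regions from 3 to 6 Mb had a median score of 55 (quartiles 33.5 and 96.5, range 13 to 294) and a median width of 268 bp. Inside genes lay 34 of the 47, and for 33 of the 34 every gene there was a predicted gene of the Gm series. In the 3 windows 37 of 40, 26 of 27 and 34 of 36 annotated genes had such symbols. Gm26650 held 6 regions with scores from 28 to 111, Gm32966 held 4 (21 to 87), Gm3194 held 3 (83 to 160), and Gm3264, which lies within Gm26650, held 3 (32 to 111). The highest score, 294, was at 3124567 to 3124822, at 5.96 kb from Gm10340. In this stretch 23 of 47 regions had a neighbour within 10 kb. The 91.4% identity of the promoters of Gm3115 and Gm3278 shown above is a measure of how alike copies here can be, and the treatment of reads that match several copies was not stated. Past 6 Mb the 17 regions of chromosome 14 had a median score of 40. Among them, Dnase1l3, for a secreted nuclease, and Pxk held 1 each (32 and 29).

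Pooled over 7 Mb, the scores of the regions at the starts were close to those elsewhere once the 2 stretches were left out. Their median was 35 (quartiles 23 and 66, range 10 to 4515), against 32 (22 and 51.3, range 10 to 4410) in the rest of the autosomes. Without the 2 stretches it was 33 (23 and 58), with a highest score of 814. The first 1 Mb stood higher. In successive windows of 1 Mb the medians were 54, 32.5, 39, 35, 34.5, 29 and 28.5. Without the 2 stretches the first 3 were 48, 28 and 38.5. In the 7 windows beyond 10 Mb the medians ran from 29 to 42. Scores of at least 100 belonged to 43 of 323 regions (13.3%, 9.80 to 17.5%), against 446 of 4436 (10.1%, 9.18 to 10.98%) in the rest. Without the 2 stretches they belonged to 25 of 270 (9.26%, 6.08 to 13.4%). In the last 7 Mb of the autosomes the share was 44 of 271 (16.2%, 12.1 to 21.2%), above that of the starts, and the median was 35 as well. Among the 50 highest of the whole list, 33 were on autosomes and 7 of these at the starts, 6 of the 7 on chromosome 9. Among the 500 highest, 445 were on autosomes and 40 of these at the starts, 23 without the 2 stretches. By chromosome, the median score of the start was above that of the rest on 11 autosomes and below it on 5.

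**Figure D4:**
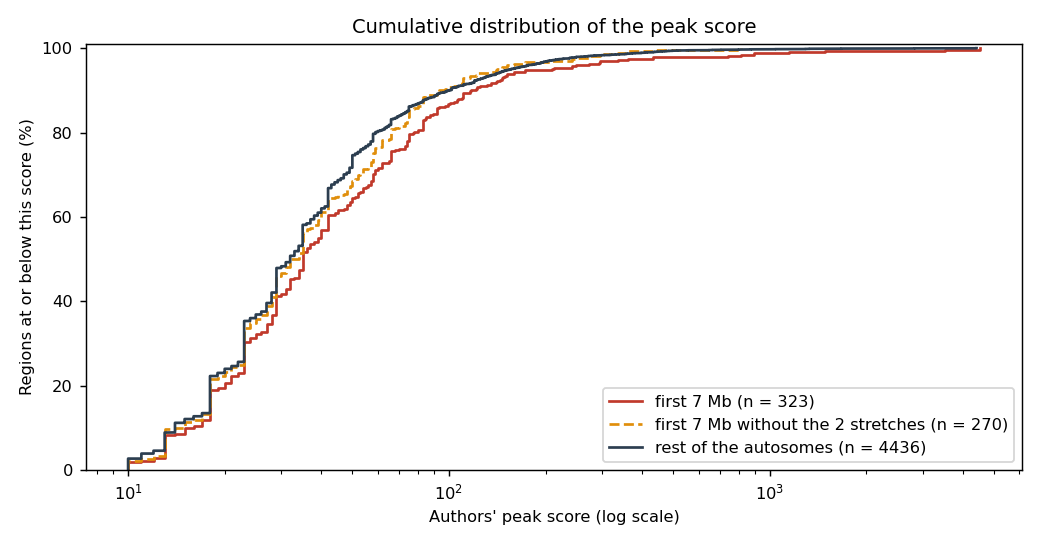
Cumulative share of regions (y axis, %) at or below each peak score (x axis, log scale) for the first 7 Mb with and without the stretches on chromosomes 14 and 9, and for the rest of the autosomes. The medians are 35, 33 and 32, and the curve of all 323 regions lies below the other 2 over most of its length.

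After chromosome 9, the highest scores at the starts were single regions. Slc25a13, the gene for the mitochondrial aspartate-glutamate carrier citrin, held one of score 814 (chromosome 6, 6170187 to 6171457) and a second of score 13. Ankrd13d, of an ankyrin repeat family that binds ubiquitin, held one of 434 (chromosome 19, 4276825 to 4277374). A region of score 361 lay 7.33 kb from Vmn1r65 (chromosome 7, 5999870 to 6000969), and one of 336 lay 12.1 kb from the pseudogene Gm9742 (chromosome 13, 8043020 to 8043853). No other region within 10 kb was listed beside any of these 4.

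Neighbours were more frequent at the starts, chiefly in these few groups. Of the 323 regions, 70 (21.7%, 17.3 to 26.6%) had another midpoint within 10 kb, against 632 of 4436 (14.2%, 13.2 to 15.3%) in the rest. Without the 2 stretches it was 41 of 270 (15.2%, 11.1 to 20.03%), whose interval holds the value of the rest. With the groups on chromosomes 4 and 11 left out too, it was 11.6%. Those groups were picked from these data as close together, so leaving them out lowers the share by construction. No such groups were left out of the rest. The next 7 Mb had 44 of 262 (16.8%, 12.5 to 21.9%) and the last 7 Mb 37 of 271 (13.7%, 9.80 to 18.3%). Both intervals overlap that of all 323 regions at the starts. Widths differed little: the median was 319 bp (249.5 to 500.5 bp between quartiles, 219 to 2724 bp in all), against 305 bp (247 to 457 bp) in the rest.

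Gene bodies held 173 of the 323 regions (53.6%, 48.0 to 59.1%), against 2347 of 4436 (52.9%, 51.4 to 54.4%) in the rest. Genes covered 46.7% of the length of the starts and 49.5% of the rest, so both shares were above the covered length. Without the 2 stretches it was 139 of 270 (51.5%, 45.3 to 57.6%), an interval that holds the covered 46.4%. The next 7 Mb had 49.2% with 43.7% covered, and the last 7 Mb 61.6% with 55.7% covered. Of the 173 at the starts, 132 (40.9% of all 323) lay in protein-coding genes, against 1906 of 4436 (43.0%) in the rest. Another 28 (8.67%) lay in genes for long non-coding RNAs and none of the first class, against 342 (7.71%) in the rest. The last 13 (4.02%, 2.16 to 6.78%) lay only in pseudogenes. In the rest 79 (1.78%, 1.41 to 2.21%) lay only in pseudogenes. Without the 2 stretches the pseudogene share at the starts was 8 of 270 (2.96%, 1.29 to 5.75%). The starts also carried 4.84 annotated pseudogenes per Mb against 3.86 in the rest, but the next 7 Mb carried 5.02. The density of annotated pseudogenes was thus not particular to the starts, though the next 7 Mb had a lower share of regions in pseudogenes. Gene ends had 17 regions within 1 kb (5.26%, 3.096 to 8.29%), against 328 (7.39%, 6.64 to 8.20%) in the rest. The share was 4.96% in the next 7 Mb and 9.96% in the last 7 Mb, so a low share was not particular to the starts. The 150 regions outside genes lay at a median of 12.5 kb from the nearest one, against 11.4 kb in the rest. No gene lay within 100 kb of 10 of the 323 regions, against 147 of 4436 in the rest.

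Regions inside protein-coding genes were spread thinly over many genes. They fell in 98 genes, of which 24 held 2 or more. Zfp704, a zinc finger gene (chromosome 3, 9427010 to 9610085), held 6 with scores of 52, 83, 10, 23, 26 and 13, as many as Gm26650. Of these only the 2 first exceeded the median of 35. Ap1b1, for a subunit of the AP-1 clathrin adaptor, held 3 (13, 116 and 37). Pfkp, for the platelet form of the glycolytic enzyme phosphofructokinase, held 3 (42, 65 and 84), and each had another within 10 kb. The predicted gene Gm3629 also held 3 (18 to 99).

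Outside genes, chromosome 3 had a short row of 4 regions, each with another within 10 kb, with scores of 25, 27, 25 and 60. Gm41989 was the nearest gene to all 4. On chromosome 7 the window from 6 to 7 Mb held 5 regions in or nearest to the zinc finger genes Zfp28 and Zfp78, the imprinted gene Usp29, Vmn1r65 and the olfactory receptor gene Olfr1350. On chromosome 17 the window from 6 to 7 Mb held 6 (scores 15 to 48), among them the one at the promoter of LOC115488814 shown above.

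Most genes with 2 regions had low scores. Akap9, for a centrosomal scaffold of protein kinase A, had scores of 249 and 32, and Cdk6, for a kinase of the G1 phase, had 66 and 49. Chd7, for a chromatin remodeller, had 21 and 18, and Ncoa1, for a coactivator of nuclear receptors, had 35 and 28. Syne1, for a large nuclear envelope protein that links to actin, had 23 and 18, and Tns3, for a tensin of focal adhesions, had 31 and 15. Adarb2, for a member of the RNA-editing deaminase family, had 74 and 35, and Tiam2, for an activator of Rac, had 23 and 54. Other genes of 2 regions, beside Slc25a13, were Pcmtd1, Frmd4a, Fam155a, Ust and Gm3373, with scores from 10 to 57. Apart from Akap9 and Slc25a13, no score in these genes reached 100.

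At gene ends the scores were modest as well. The highest within 1 kb of an end were at Gm33862 (273), Gm3476 (75), Gm3702 (58), Gm3252 (55), Gm3278 (45), Gm26680 (40) and Pdk4 (35), and then at Gm17046 (32), Gm18222 and Gm41523 (29 each). Of these 10 genes Pdk4, for a kinase that inhibits pyruvate dehydrogenase, is the one without a Gm symbol, and its region lay 0.983 kb from the gene.

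For the 4 gene lists examined, members at autosome starts were counted. They were 1 of 34 autosomal members for the 2-cell-like list and 1 of 29 for the naive pluripotency list. They were 5 of 35 for the heterochromatin and centromere list and 0 of 28 for the telomere list. Of all autosomal genes, 2452 of 46710 lie there. The naive pluripotency list has 1, Lifr, for the receptor of leukaemia inhibitory factor, which ES cells need for self-renewal. Its region (chromosome 15, 7090384 to 7090725, score 13) crosses the annotated start of the gene at 7090610, but the first of its 2 promoters in the RefSeq table lies 39.0 kb further on. The heterochromatin and centromere list has 5, namely Dnmt3a, Suv39h2, Kmt5b and Kmt5c, for enzymes that methylate DNA or histones, and Incenp, for an inner centromere protein of the chromosomal passenger complex. None of the 5 had a region in the body or within 10 kb, and Incenp had one within 50 kb. Rfpl4, of the 2-cell-like list, had none, and no gene of the telomere list lies at a start. For comparison, 268 of all 2452 genes at the starts (10.9%) had a region within 10 kb, against 4311 of 46710 on the autosomes as a whole (9.23%).

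Of 31 Vmn1r genes and pseudogenes at the starts, 4 (12.9%) had a region within 10 kb, a share near the 10.9% of all genes there. Elsewhere on the autosomes it was 5 of 335 (1.49%), below the 9.23% of all autosomal genes. The 4 at the starts were Vmn1r65 (score 361), Vmn1r-ps138 (73), Vmn1r238 (59) and Vmn1r261 (42), each on another chromosome and each with 1 region. Members of this family resemble one another, and how uniquely reads map to them was not measured. Vmn2r genes, which encode the other class of vomeronasal receptors, had 1 of 42 (2.38%, Vmn2r49, score 58). Olfactory receptor (Olfr) genes had 0 of 15, and Zfp genes 4 of 25 (16%). On the autosomes as a whole the shares were 6% for Vmn2r, 2.11% for Olfr and 17.7% for Zfp genes. The 4 Zfp genes at the starts were Zfp704 and, on chromosome 7, Zfp78, Zfp28 and Zfp418, with highest scores of 23, 23 and 66. One region, of score 23, counts for both Zfp78 and Zfp28, and Zfp78 holds another of score 14. MicroRNA (Mir) genes had 1 of 42, Mir6918 (score 52), and Snord genes 1 of 3, Snord22 (26). Genes of the Gm series had 119 of 1197 (9.94%), and those with names ending in Rik 10 of 103 (9.71%). For these 2 groups it was 7.20% and 8.99% on the autosomes as a whole.

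The limit at 10 Mb separates similar regions. The 3 nearest inside it lay 33.7, 79.0 and 134.8 kb before the limit, in the pseudogene Gm3702 (score 58), near Gm36913 (29) and in Grin2a (35). The 3 nearest outside it lay 14.8, 16.1 and 101.3 kb beyond it, 85.0 kb from Gm34799 (42), near Ppp1r42 (51) and in Cspp1 (111). No listed region on an autosome had a midpoint below 3 Mb.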

How the data were processed

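Chromatin of J1 ES cells was immunoprecipitated with anti-FLAG, 5 ng of DNA was used per library and fragments of about 250 bp were sequenced, per the labels' protocols. Per the submitters' processing notes, mm10 was the build and MACS2, Bowtie2, cutadapt and deepTools were used. Versions and thresholds are not given there, nor whether the input entered the peak calling. Whether stretches prone to an excess of reads were filtered out is unknown. Each region carries 1 score deposited by the authors, a whole number. Other values deposited by the authors were region start and end in bp, counted from 0 and printed here counted from 1. No read counts are given, so depth is unknown. Peaks come from 1 immunoprecipitation and were not pooled as far as the labels say. Some regions may have been left out of the list used here.

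Genes came from a RefSeq table of GRCm38.p6, which shares its primary chromosomes with mm10. Of the autosomal genes, 46710 were used and 328 starting below 3 Mb were left out. A region was assigned by its midpoint. The length of a chromosome ended at the last annotated or listed position, and gaps were kept. Rates have exact Poisson and shares exact (Clopper-Pearson) binomial intervals at 95%, and the interval of the rate ratio is the exact conditional binomial one. No test was run, since 1 sample gives no spread. A region inside several genes was counted once, with protein-coding genes taken first, then long non-coding RNA genes, then pseudogenes. Promoter pairs were aligned globally.

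Named were genes at or nearest to the 10 highest regions, protein-coding genes with 2 or more regions, the 10 highest within 1 kb of a gene end, list members with a region within 10 kb, the genes nearest to the first regions of 10 autosomes, and genes of 1 Mb windows with 5 or more regions. The Gm and Rik families were counted without names, and not every gene that met the last of these rules is named. In addition, 1 gene is not reported here. Dync2h1, Pxk and the genes nearest to the limit at 10 Mb were named after their values were seen. The regions, lists and rules were chosen with earlier results of these data known. The counting functions were tested on simulated data. Python 3.11.15, pandas 2.3.3, numpy 2.4.6 and scipy 1.17.1 were used.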

Additional observations from a re-analysis of the deposited data

How the results depend on the processing

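The ratio of the starts to the rest, 1.24, depended on which stretches and scores were kept. It was 1.06 without the stretches on chromosomes 14 and 9, which were left out of the starts only. The share of autosomal regions was then 5.74%. Without chromosomes 1 and 8 the ratio was 1.40. Among the 1189 autosomal regions of highest score it was 1.74, with a share of 9.25%. Among the 2379 highest without the 2 stretches it was 1.08, and among the 1189 highest without them 1.30, both added after seeing the data. Leaving out 1 autosome at a time gave 1.04 (chromosome 14) to 1.33 (chromosome 8), and the median score was then 34 to 35. Windows ending at 8 and 13 Mb gave 1.39 and 1.23, merging within 1 kb 1.23, leaving out chromosomes 1, 8 and 14 1.16, and leaving out 1 Mb windows of 10 or more regions 1.15, the last 2 added after seeing the data. Windows ending at 8 and 13 Mb had median scores of 40 and 34. The share with a neighbour within 100 kb was 54.5%, against 48.0% in the rest, 52.3% in the next 7 Mb and 45.0% in the last 7 Mb. Within 10 kb it was 15.2% without the 2 stretches and 11.6% without the groups on chromosomes 4 and 11 as well. The last value was added after seeing the data and was lowered by construction. Protein-coding genes alone held 40.9%. With regions within 50 kb, also added, 2 genes of the 4 lists had one, in place of 1. In all, 16 of 27 alternatives lay inside the interval of the value reported (1.5 times for the count of genes) and 11 outside. Among those outside, neighbours within 100 kb, protein-coding genes alone and genes within 50 kb count another quantity than the value reported. The tally is therefore no measure of how stable the results are. The cause of each move beyond the regions or chromosomes left out was not tested. No paired analysis was possible because each group holds 1 sample. Read depth, mappability and copy number were not measured, so differences in rate between stretches cannot be told apart from differences in these.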

Other observations

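The X chromosome, which is also telocentric, had 1 region in its first 7 Mb (score 77), or 0.143 per Mb (95% exact Poisson interval 0.00362 to 0.796), against 154 regions, or 0.957 per Mb (0.812 to 1.12), in the rest of it.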
